A study of Mus musculus with 53 samples.

Results

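The genes described here are the 7 ligands of the epidermal growth factor receptor (Egf, Tgfa, Areg, Ereg, Btc, Hbegf and Epgn) and 3 receptors of the ERBB family (Egfr, Erbb2 and Erbb3). They were taken by symbol, and all 10 were found among the 55421 genes of the count table. RNA of whole mouse tissue was sequenced in 53 libraries of 11 groups, and each group was set against the wild-type (WT) group of its own tissue and time.

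Every mouse, WT mice included, carried the VilCreER transgene, in which the Villin promoter drives a tamoxifen-dependent Cre in the intestinal epithelium, and all had been given tamoxifen. WT mice carried no further allele. BA mice carried BrafV600E/+, an activated BRAF kinase, together with Alk5fl/fl, floxed copies of the gene for the TGFβ receptor ALK5 (Tgfbr1), and A mice carried Alk5fl/fl alone. Apcfl/fl and Apcfl/+ mice carried floxed copies of Apc, whose loss activates Wnt signalling. In the proximal colon, primary BA tumours (n = 4) were compared with WT tissue (WT PC, n = 3). At 30 days after induction (d30), proximal colon came from WT (n = 4), A (n = 4), sulindac-treated A (n = 4), BA (n = 5) and antibiotic-treated BA mice (n = 5). Sulindac, an anti-inflammatory drug, was given in the drinking water at 0.4 g/L for the first 14 days. The antibiotics were ampicillin, neomycin and metronidazole at 1 g/L each and vancomycin at 500 mg/L. In the small intestine, Apcfl/fl (n = 10) and WT tissue (n = 6) were taken at day 4, and primary Apcfl/+ tumours (n = 5) were compared with WT tissue (WT SI, n = 3). The last 2 groups are labelled as inbred C57BL6/J and the others as mixed C57BL/6J, whereas the study's methods give a C57BL/6J background for all mice. Mice were adult males and females, and neither the sex nor the sequencing batch of a library was given.

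EGFR ligands are made as membrane-bound precursors and are released by metalloproteases such as ADAM17. Amphiregulin (Areg), epiregulin (Ereg), betacellulin (Btc), HB-EGF (Hbegf), TGFα (Tgfa), epigen (Epgn) and EGF itself all bind EGFR, whereas ERBB2 has no known ligand of its own and ERBB3 binds neuregulins and signals mainly through its partner. In the gut these receptors act upstream of RAS, BRAF and ERK and are known for their part in crypt proliferation and in repair after injury.

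Of the ligands, 4 lie together. Epgn (ENSMUSG00000035020, chr5:91027464-91035215, plus strand), Ereg (ENSMUSG00000029377, chr5:91074622-91093646, plus), Areg (ENSMUSG00000029378, chr5:91139599-91148432, plus) and Btc (ENSMUSG00000082361, chr5:91357261-91402994, minus) are the 4 protein-coding genes of a stretch of 376 kb of GRCm38. The other ligands are Egf (ENSMUSG00000028017, chr3:129677565-129755316, minus), Tgfa (ENSMUSG00000029999, chr6:86195223-86275719, plus) and Hbegf, which is placed where its values are given. The receptors are Egfr (ENSMUSG00000020122, chr11:16752203-16918158, plus), Erbb2 (ENSMUSG00000062312, chr11:98412470-98437716, plus) and Erbb3 (ENSMUSG00000018166, chr10:128567523-128589652, minus). The setting for strand in the authors' counting is not given in the sources used here. Egf overlaps the opposite-strand genes 6330410L21Rik and Gm42697, Tgfa overlaps Gm43917, Ereg overlaps Gm19610 and Erbb2 overlaps Mien1, so reads of these stretches are uncertain.

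Promoter sequence from RefSeq (GRCm38.p6) was matched for Egf, which has 2 entries, and for Epgn, Areg, Btc, Tgfa, Egfr and Erbb2. Ereg, Hbegf and Erbb3 were not matched. The 250 bases before the RefSeq start are shown for Areg and Btc, the ligands of the chr5 stretch with the largest differences in most groups, and for Egfr and Erbb2, with the motifs found in capitals. RefSeq starts can differ from the gene coordinates given above. The Erbb2 and Epgn windows reach past those gene starts, and 1 of the 2 Egf windows lies within the gene. Areg was read at chr5:91139349-91139598 on the plus strand, Btc at chr5:91402995-91403244 on the minus strand, Egfr at chr11:16751953-16752202 on the plus strand and Erbb2 at chr11:98412234-98412483 on the plus strand.
Areg: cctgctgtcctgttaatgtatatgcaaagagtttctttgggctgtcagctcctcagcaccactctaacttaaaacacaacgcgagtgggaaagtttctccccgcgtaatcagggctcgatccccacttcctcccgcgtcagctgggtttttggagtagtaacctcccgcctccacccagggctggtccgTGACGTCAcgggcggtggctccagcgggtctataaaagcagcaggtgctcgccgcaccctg
Btc: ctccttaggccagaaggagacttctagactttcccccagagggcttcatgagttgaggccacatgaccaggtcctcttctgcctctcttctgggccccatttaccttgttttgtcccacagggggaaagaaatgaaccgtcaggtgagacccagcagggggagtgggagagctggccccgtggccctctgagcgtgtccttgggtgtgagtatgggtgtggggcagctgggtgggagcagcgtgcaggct
Egfr: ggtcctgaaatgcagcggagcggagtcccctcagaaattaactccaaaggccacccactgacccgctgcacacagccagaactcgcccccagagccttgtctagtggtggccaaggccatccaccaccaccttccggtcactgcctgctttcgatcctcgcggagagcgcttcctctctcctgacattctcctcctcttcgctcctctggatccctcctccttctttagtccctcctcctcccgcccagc
Erbb2: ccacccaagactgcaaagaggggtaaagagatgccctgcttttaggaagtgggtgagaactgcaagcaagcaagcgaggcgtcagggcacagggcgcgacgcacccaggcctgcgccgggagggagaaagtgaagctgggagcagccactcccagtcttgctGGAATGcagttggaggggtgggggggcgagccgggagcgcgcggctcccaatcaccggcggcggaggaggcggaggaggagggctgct
Both strands were searched for the AP-1 site TGANTCA, the TEAD site GGAATG, the cAMP response element TGACGTCA and the TCF/LEF site CTTTGAT. Areg held the cAMP response element 61 bases before its start, a motif found in 1.55% of 32851 promoter windows of this length. Erbb2 held GGAATG 88 bases before its RefSeq start, and 12.6% of all windows held this motif. TGANTCA (6.75% of windows) and CTTTGAT (3.21%) occurred in none of the 8 windows.

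Libraries held 516985 to 32824795 counted reads with a median of 18356939, and Apcfl/fl replicate 1 was the shallowest. Levels below are normalised CPM, the reads of a gene relative to all counted reads of its library, scaled over all 53 libraries. Whole-gene counts of Tgfbr1, Braf and Apc did not test the labels, because the deletions remove part of a gene in the epithelium only and V600E changes 1 codon. Summed CPM of 4 colon markers ran from 12287 to 26691 in the WT, A and BA colon and from 1112 to 5217 in BA tumours, and summed CPM of 6 small-intestinal markers ran from 10620 to 21696 in WT small intestine and from 178 to 7223 in Apcfl/+ tumours. Small-intestinal markers reached 1002 CPM in 1 BA tumour, against 47.1 to 129 CPM in WT PC, and colon markers reached 455 CPM in 1 Apcfl/+ tumour, against 33.2 to 47.7 CPM in WT SI. Libraries were split by reads of Gm13394, a Gapdh-like pseudogene, and of the Y-linked gene Ddx3y. Gm13394 was over 10 CPM in 3 of 4 BA tumours and 0 of 3 WT PC, in 0 of 5 Apcfl/+ tumours and 3 of 3 WT SI, in 6 of 10 Apcfl/fl and 3 of 6 WT at day 4, and in every d30 library except the 4 WT. Ddx3y was over 10 CPM in 3 of 4 BA tumours, 0 of 3 WT PC, 1 of 5 Apcfl/+ tumours, 3 of 3 WT SI, 4 of 10 Apcfl/fl and 4 of 6 WT at day 4, and all d30 libraries.

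Expression of these genes differed from WT in both tumour types, in Apcfl/fl small intestine and in d30 BA colon, and no member passed the test in d30 A colon. A gene was called where its p-value, adjusted over all genes tested, was under 0.05. In BA tumours 6 of the 9 members tested were called, 5 higher and 1 lower, where 13.2% of all genes tested were called. In Apcfl/+ tumours 7 of 9 were called, 6 higher and 1 lower, against 61.5% of all genes. At day 4 after Apc loss 6 of 9 were called, 4 higher and 2 lower, against 54.2%. At d30, 8 of 9 were called in BA colon against WT, 7 higher and 1 lower, against 55.1% of all genes, and 9 of 9 in BA against A colon, 8 higher and 1 lower, against 45.3%. In antibiotic-treated BA against WT 6 of 9 were called, 5 higher and 1 lower, against 39.6%. In every comparison Epgn was left out by the filter on low counts. In Apcfl/+ tumours and at day 4 the members' share was near that of all genes, so the counts there say little about the family as such. The 2 groups did not overlap for 27.5% of all genes tested in BA tumours, 59.2% in Apcfl/+ tumours and 16.8% at day 4. At d30 this share was 45.4% for BA, 32.8% for antibiotic-treated BA and 5.11% for sulindac-treated A, each against WT. It was 36.1% for BA against A and 10.7% for antibiotic-treated against untreated BA. Lack of overlap in Apcfl/+ tumours thus says little about a single gene. Whole tissue was sequenced, so fewer cells of a type and less RNA per cell cannot be told apart.

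**Figure D1:**
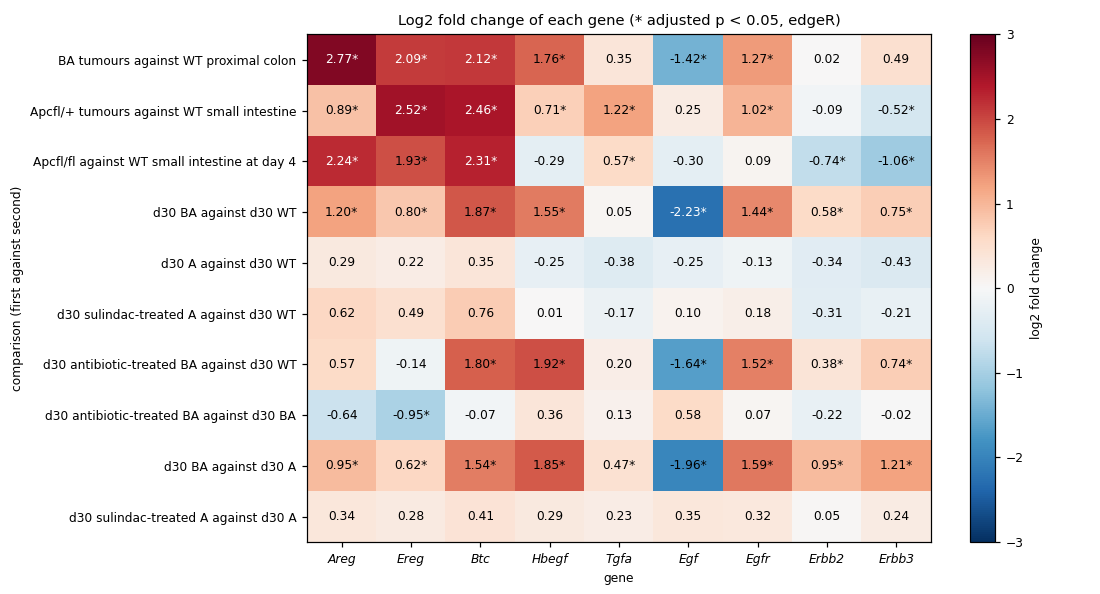
Log2 fold change of each of 9 genes (columns) in 10 comparisons (rows), with positive values for higher expression in the first-named group and a star for an adjusted p under 0.05 in edgeR. Areg, Ereg and Btc are starred and positive in both tumour types, at day 4 and in d30 BA colon, and the 2 rows for A colon against WT hold no star.

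Areg, which encodes amphiregulin, was the ligand with the highest mean level per length in 9 of 11 groups. In WT PC its levels were 4.00, 14.2 and 7.81 CPM, and in BA tumours 32.1, 87.4, 48.4 and 67.3 CPM. All 4 tumours lay above the 3 WT libraries, and the fitted difference was 6.81-fold (log2 2.77 ± 0.49 SE, adjusted p = 0.00892). At day 4, Areg ran from 8.65 to 29.0 CPM in WT small intestine (median 19.9, n = 6) and from 28.7 to 206 CPM in Apcfl/fl tissue (median 64.4, n = 10). The 2 ranges met at their edge, and Areg was 4.71-fold higher after Apc loss (log2 2.24 ± 0.40, adjusted p = 0.000196). The 6 Apcfl/fl libraries over 10 CPM of Gm13394 had a mean of 124 CPM ± 59.1 (SD) and the other 4 a mean of 44.1 CPM ± 11.5. WT means were 17.7 CPM ± 8.76 (n = 3) and 22.1 CPM ± 6.62 (n = 3). Areg was called within both subsets, with log2 differences of 2.77 ± 0.51 and 1.13 ± 0.21.

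In Apcfl/+ tumours Areg was also higher. The tumours held 13.4, 18.1, 25.5, 27.6 and 21.9 CPM and WT SI held 9.84, 12.3 and 14.9 CPM. The groups overlapped, and the log2 difference was 0.89 ± 0.25 (adjusted p = 0.0139). The call was lost without WT SI replicate 1 (adjusted p = 0.0562, log2 0.75). In d30 BA colon Areg stood at 61.5, 41.3, 47.2, 27.1 and 46.7 CPM, against 12.8, 34.9, 18.7 and 10.9 CPM in WT and 34.1, 25.7, 19.3 and 14.9 CPM in A colon. BA colon was 2.29-fold above WT (adjusted p = 0.00837) and 1.94-fold above A (adjusted p = 0.00941), and 1 WT and 1 A library reached into the BA range.

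Ereg, which encodes epiregulin, was higher in the same 4 comparisons with WT. BA tumours held 40.9, 29.8, 36.2 and 39.2 CPM and WT PC 6.20 to 11.05 CPM (median 8.24). The tumours lay close together and clear of WT, at 4.26-fold (log2 2.09 ± 0.24, adjusted p = 0.00200). Apcfl/+ tumours were more spread, with 3 at 95.4 to 103 CPM and replicates 1 and 2 at 46.8 and 35.4 CPM, all above the WT SI values of 8.08, 18.0 and 16.5 CPM. The difference was 5.75-fold (log2 2.52 ± 0.45, adjusted p = 0.00153). At day 4 Ereg ran from 12.7 to 81.2 CPM after Apc loss (median 47.6) and from 8.45 to 18.0 CPM in WT (median 12.9), a 3.82-fold difference (adjusted p = 5.78e-05). The lowest Apcfl/fl value came from the shallowest library. In d30 BA colon the 5 values of 18.8 to 26.3 CPM lay above the 4 WT values of 9.58 to 14.9 CPM (log2 0.80 ± 0.15, adjusted p = 0.00110). Against A colon, at 11.6 to 18.9 CPM, the log2 difference was 0.62 ± 0.18 (adjusted p = 0.0146), a call that was lost with all 5 d30 groups in 1 fit (adjusted p = 0.0541).

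Btc, which encodes betacellulin, lay clear of WT in every group with a BRAF or Apc allele. Of all genes tested, 27.5% showed no overlap in BA tumours, 59.2% in Apcfl/+ tumours and 16.8% at day 4. The share was 45.4% in d30 BA colon and 32.8% with antibiotics. BA tumours held 20.2, 17.7, 31.0 and 41.2 CPM against 6.71, 5.58 and 6.53 CPM in WT PC (4.34-fold, adjusted p = 0.00535). Apcfl/+ tumours held 48.7, 21.1, 47.3, 65.0 and 47.4 CPM against 6.54, 8.86 and 11.4 CPM in WT SI (5.50-fold, adjusted p = 0.000548). At day 4 all 10 Apcfl/fl libraries, from 14.3 to 51.8 CPM (median 36.7), lay above all 6 WT libraries, from 6.56 to 8.08 CPM (median 7.55). This was a 4.94-fold difference (log2 2.31 ± 0.19, adjusted p = 2.43e-07). In d30 colon Btc stood at 15.7, 12.4, 20.2, 13.2 and 18.9 CPM in BA mice, at 5.87, 4.35, 3.57 and 3.68 CPM in WT mice and at 5.61, 4.45, 6.89 and 5.24 CPM in A mice. BA colon overlapped neither group and was 3.64-fold above WT (adjusted p = 1.46e-05) and 2.91-fold above A (adjusted p = 9.96e-05).

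Hbegf (ENSMUSG00000024486, chr18:36504927-36515805, minus strand), which encodes a heparin-binding ligand, had its highest levels in d30 BA colon, with or without antibiotics. At d30 BA mice held 128, 119, 139, 77.2 and 94.9 CPM, WT mice 27.4, 39.8, 40.2 and 42.9 CPM and A mice 41.6, 18.3, 39.9 and 25.7 CPM. The lowest BA library was well above the highest of either other group, and the difference was 2.94-fold from WT (adjusted p = 3.77e-05) and 3.60-fold from A (adjusted p = 0.000183). BA tumours held 45.9, 33.0, 47.0 and 67.2 CPM against 8.00, 23.1 and 11.5 CPM in WT PC (log2 1.76 ± 0.38, adjusted p = 0.0184). This call was lost without WT PC replicate 1 or 3, with an adjusted p of up to 0.0798. In Apcfl/+ tumours the log2 difference was 0.71 ± 0.26 (adjusted p = 0.0430) with overlapping groups, 22.5 to 49.8 against 16.7 to 27.5 CPM, and the call held in 2 of the 8 fits that left out 1 library, with an adjusted p of up to 0.144. It was kept without WT SI replicate 3 and without Apcfl/+ tumour replicate 2. At day 4 Hbegf did not pass, at 6.37 to 33.5 CPM after Apc loss and 17.1 to 29.4 CPM in WT (log2 -0.29 ± 0.20). Within the libraries up to 10 CPM of Gm13394 its log2 difference was -0.84 ± 0.16, which was called, and within those over 10 CPM it was 0.15 ± 0.24, which was not.

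Tgfa, which encodes TGFα, was abundant in the d30 colon of every genotype, and its differences were small there. WT mice held 72.1, 73.3, 92.3 and 76.7 CPM and BA mice 76.4 to 85.6 CPM, and the log2 difference was 0.05 ± 0.08. A mice held 50.8, 49.7, 86.1 and 53.4 CPM. Tgfa was called between BA and A (log2 0.47 ± 0.16, adjusted p = 0.0358), yet in 2 of the 9 fits that left out 1 library only, without A replicate 3, where the log2 difference was 0.73, and without BA replicate 4. It was lost without BA replicate 1, 2, 3 or 5 or A replicate 1, 2 or 4 (adjusted p up to 0.0792). The clearest difference was in Apcfl/+ tumours, where the 5 values of 50.1 to 59.5 CPM lay above the WT SI values of 23.7, 22.9 and 27.4 CPM (2.32-fold, adjusted p = 4.32e-05). At day 4 Tgfa was 1.48-fold higher after Apc loss (adjusted p = 0.0145), a call that was lost within the libraries over 10 CPM of Gm13394 (log2 0.61 ± 0.27, adjusted p = 0.115) and kept within the others (log2 0.60 ± 0.13). In BA tumours it did not pass (log2 0.35 ± 0.23, 42.6 to 57.8 against 28.4 to 51.6 CPM).

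Egf was the ligand that was lower in BA colon, from a low level in WT. In d30 BA colon the 5 libraries held 0.607 to 0.848 CPM, against 5.30, 2.36, 3.05 and 3.68 CPM in WT and 1.49, 2.62, 2.95 and 4.93 CPM in A colon. These levels rest on 9 to 14 reads per library in BA, 45 to 102 in WT and 22 to 95 in A colon. BA colon was below every library of both groups, 4.70-fold below WT (adjusted p = 2.52e-05) and 3.90-fold below A (adjusted p = 0.000682). BA tumours held 4.10, 2.04, 2.44 and 1.66 CPM against 8.23, 4.11 and 7.81 CPM in WT PC (log2 -1.42 ± 0.39, adjusted p = 0.0437). That call was lost without BA tumour replicate 2, 3 or 4 or WT PC replicate 1 or 3, with an adjusted p of up to 0.178. In Apcfl/+ tumours (0.885 to 4.78 CPM) and at day 4 (median 0.769 CPM after Apc loss and 0.645 to 1.38 CPM in WT) Egf did not pass. Within the day 4 libraries over 10 CPM of Gm13394 it was called lower after Apc loss (log2 -0.76 ± 0.26, adjusted p = 0.0470), and within the others its log2 difference was 0.37 ± 0.38, which was not called. Smooth muscle and enteric neuron and glia markers moved with Egf in d30 BA colon. Of 8 muscle markers 6 were lower than in WT, with summed levels of 1024 to 4218 against 5232 to 6096 CPM, and of 6 neuron and glia markers all 6 were lower. In antibiotic-treated BA colon, where Egf was 3.12-fold below WT, 0 of 8 muscle markers and 3 of 6 neuron and glia markers were lower. Muscle sums there were 1755 to 5931 CPM. The part of these cells in the Egf result was not tested.

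Epgn was near the limit of counting. It had 0 to 13 reads per library, 0 reads in 5 libraries and fewer than 3 in 18. BA tumours held 6 to 9 reads and WT PC 0 to 2 reads, and Apcfl/+ tumours held 3 to 11 reads and WT SI 1 to 2. These counts are given without a fold. With no filter on low counts Epgn was called higher in Apcfl/+ tumours (adjusted p = 0.0335) and at day 4 (adjusted p = 0.0324) and not in BA tumours (adjusted p = 0.0562), whereas DESeq2 called it in BA tumours (adjusted p = 0.0380) and not in the other 2 (adjusted p = 0.0530 and 0.0518).

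**Figure D2:**
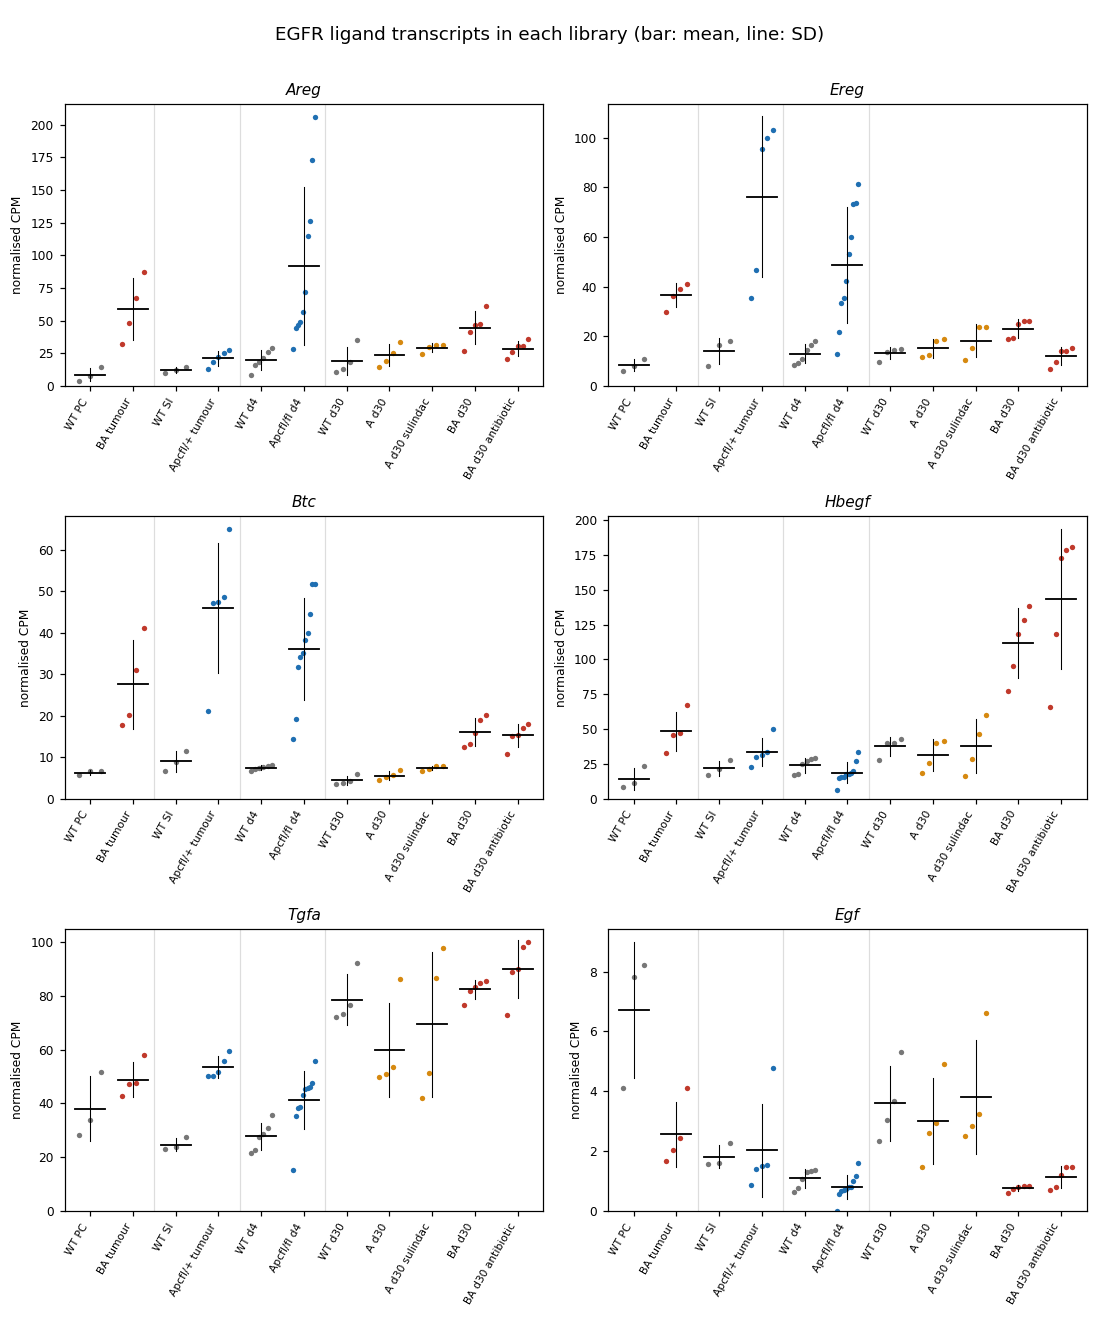
Normalised CPM (y axis, linear from 0, scaled separately for each gene) of 6 ligand genes in each of 53 libraries, by group (x axis). Points are libraries, in grey for WT, red for BA, blue for Apc and orange for A groups, and the horizontal bar and vertical line are the mean and SD. Btc is higher in all 10 Apcfl/fl libraries than in the 6 WT libraries at day 4, Hbegf reaches 77.2 to 139 CPM in d30 BA colon, and Egf lies under 1 CPM there.

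Fibroblast and neutrophil markers moved with the ligands in the tumours. In BA tumours 5 of 10 fibroblast markers and 7 of 8 neutrophil markers were higher than in WT PC, and the summed neutrophil markers ran from 166 to 540 CPM against 10.8 to 17.4 CPM. In Apcfl/+ tumours 7 of 10 and 7 of 8 were higher. Of all genes tested, 13.2% were called in BA tumours and 61.5% in Apcfl/+ tumours, so the fibroblast count in the latter is near that share. At day 4, when the same 3 ligands of the chr5 stretch were higher, 0 of 10 fibroblast markers and 0 of 6 neutrophil markers tested were higher than in WT, and neutrophil sums were 7.96 to 38.2 against 33.0 to 57.0 CPM. In d30 BA colon 0 of 10 fibroblast markers were higher. Of 8 neutrophil markers 4 were tested there, of which 2 were higher and 1 lower. Neutrophil sums were 337 to 534 against 12.6 to 16.0 CPM in WT, so the sum rests on few genes. Of 10 immune markers 0 were higher and 1 lower, with sums of 221 to 329 against 266 to 366 CPM. With antibiotics 1 of the 4 neutrophil markers tested was higher than in WT and 0 lower, with sums of 337 to 371 CPM. The part of fibroblast or neutrophil RNA in the ligand values was not tested in any group.

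Per kilobase of exon the ligands could be compared with each other. Each gene was given its annotated exon length, from 1.22 kb for Areg to 11.3 kb for Egf. Which transcripts were expressed was not tested, and the shares depend on these lengths. The 7 ligands summed to 13.1 to 28.8 normalised FPKM in the 3 WT PC and to 57.4 to 97.9 in the 4 BA tumours, to a mean of 24.1 ± 5.05 (SD) in WT SI and 61.6 ± 15.8 in Apcfl/+ tumours, and to 30.53 ± 7.52 in WT and 106 ± 58.0 in Apcfl/fl tissue at day 4. At d30 the sum was 40.4 ± 9.62 in WT, 40.4 ± 8.77 in A and 82.0 ± 16.0 in BA colon. The make-up differed between these groups. Areg made up 67.8% ± 9.69 of the sum at day 4 after Apc loss and 57.8% ± 11.5 in BA tumours. In Apcfl/+ tumours Ereg (28.7% ± 6.35) and Areg (28.6% ± 4.34) had equal shares within their spread. In antibiotic-treated BA colon Hbegf (39.1% ± 5.85) led Areg (32.5% ± 2.90), with ranges that overlapped. Egf and Epgn stayed under 1% of the sum on average in all groups but WT PC, where Egf made up 3.56% ± 2.17.

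**Figure D3:**
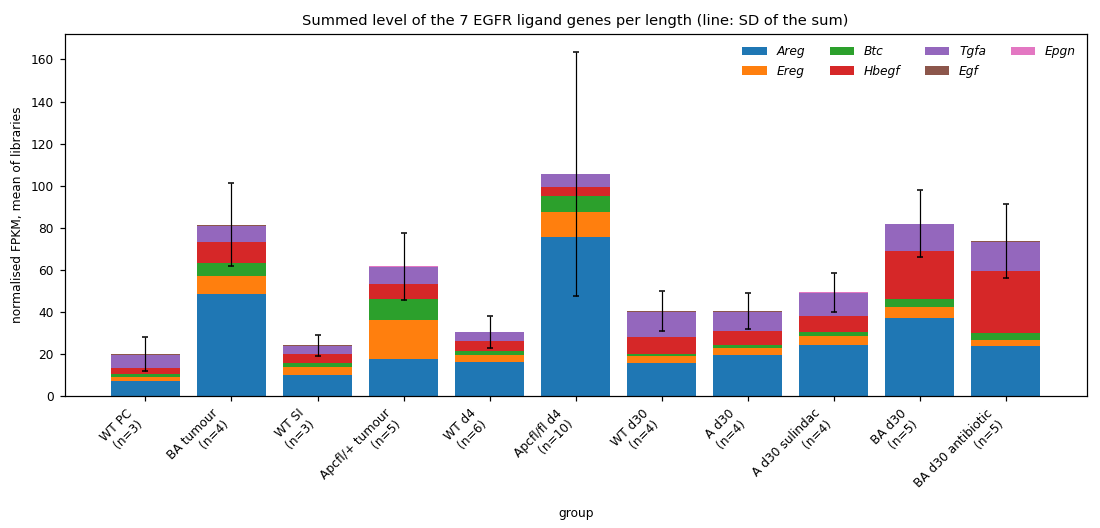
Stacked mean level of the 7 ligand genes per length (y axis, normalised FPKM, from 0) in 11 groups (x axis), with the SD of the summed level between libraries as a line. The mean sum is 81.4 in BA tumours and 61.6 in Apcfl/+ tumours, Areg is the largest block in most groups, and Hbegf is the largest in antibiotic-treated BA colon.

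Egfr, the shared receptor of these ligands, was higher in both tumour types and in d30 BA colon. BA tumours held 148, 131, 131 and 188 CPM against 47.8, 76.2 and 59.8 CPM in WT PC (2.41-fold, adjusted p = 0.00907), and the groups did not overlap. The call was lost without WT PC replicate 1 (adjusted p = 0.0608). Apcfl/+ tumours held 118, 82.1, 120, 118 and 88.7 CPM against 58.8, 54.4 and 53.7 CPM in WT SI (2.03-fold, adjusted p = 0.000598). In d30 BA colon the 5 values of 106, 96.2, 137, 102 and 114 CPM were all over 2-fold above the highest WT library, at 47.9 CPM, and the highest A library, at 46.5 CPM. The fitted difference was 2.71-fold from WT (adjusted p = 3.25e-06) and 3.02-fold from A (adjusted p = 1.89e-05). At day 4 after Apc loss Egfr did not pass, with 13.3 to 47.2 CPM (median 27.8) after Apc loss, 22.9 to 33.6 CPM (median 27.1) in WT and a log2 difference of 0.09 ± 0.19.

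Erbb2 and Erbb3, the receptors with the highest levels per length, were higher in d30 BA colon and lower after Apc loss. For Erbb2, d30 BA libraries held 424 to 440 CPM, WT libraries 257 to 304 CPM and A libraries 164 to 258 CPM. The log2 difference was 0.58 ± 0.07 from WT (adjusted p = 2.75e-05) and 0.95 ± 0.14 from A (adjusted p = 0.000260), with no overlap. For Erbb3, d30 BA libraries held 830 to 924 CPM, WT 419 to 654 CPM and A 301 to 474 CPM, and BA colon was 1.68-fold above WT (adjusted p = 0.000168) and 2.31-fold above A (adjusted p = 0.000136). At day 4 both were lower after Apc loss. Erbb2 ran from 49.0 to 138 CPM (median 99.1) against 154 to 193 CPM in WT (log2 -0.74 ± 0.16, adjusted p = 0.000791), and Erbb3 from 113 to 314 CPM (median 235) against 289 to 629 CPM (log2 -1.06 ± 0.19, adjusted p = 0.000171). In Apcfl/+ tumours Erbb3 was 1.44-fold lower (222.6 to 390 against 476 to 594 CPM, adjusted p = 0.0421). Erbb2 did not pass there (log2 -0.09 ± 0.07). Its 5 tumour values of 102 to 112 CPM lay below the 3 WT values of 118 to 127 CPM, and 59.2% of all genes tested there showed no overlap. The Erbb3 call held in 3 of the 8 fits that left out 1 library, and was lost without any 1 of the 3 WT SI libraries or without Apcfl/+ tumour replicate 4 or 5 (adjusted p up to 0.145). Neither receptor passed in BA tumours, where replicate 2 held 76.8 CPM of Erbb2 and 279 CPM of Erbb3 and the other 3 held 192 to 225 and 513 to 775 CPM.

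Epithelial markers moved with Erbb2 and Erbb3 at d30, and also with Egfr, Areg, Ereg, Btc and Hbegf, which were higher in the same BA libraries. Of 10 epithelial markers 8 were higher in BA than in WT colon and 0 lower, and their summed levels ran from 24247 to 27722 CPM in BA, 12506 to 14896 CPM in WT and 12416 to 20630 CPM in A colon. Against A colon 8 of 10 were higher as well. Of all genes tested, 55.1% were called in BA against WT and 45.3% in BA against A colon. The part of epithelial RNA in the receptor and ligand results was not tested. In Apcfl/+ tumours, where Erbb3 was lower, 5 of 10 epithelial markers were higher and 1 lower, with sums of 7326 to 13108 CPM against 7907 to 9155 CPM in WT SI. In BA tumours, where the receptors did not pass, the epithelial sums of 11269 to 17326 CPM overlapped the WT PC sums of 13540 to 16613 CPM. At day 4, 1 of 10 epithelial markers was higher and 2 were lower, and the sums were 8496 to 11208 CPM after Apc loss and 11235 to 13775 CPM in WT.

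**Figure D4:**
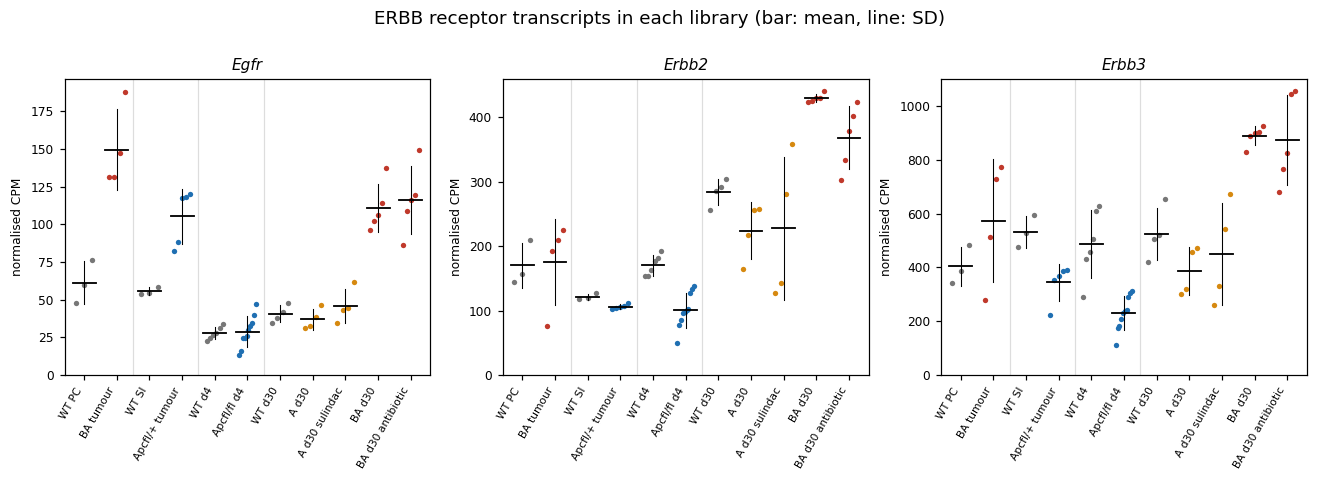
Normalised CPM (y axis, linear from 0, scaled separately for each gene) of Egfr, Erbb2 and Erbb3 in each library by group (x axis), with points for libraries, a bar for the mean and a line for the SD, in grey for WT, red for BA, blue for Apc and orange for A groups. Egfr is higher in both tumour types and d30 BA colon, Erbb2 lies between 424 and 440 CPM in all 5 d30 BA libraries, and 1 BA tumour stands low for Erbb2 and Erbb3.

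The splits by Ddx3y and Gm13394 touch the tumour results. Within the libraries up to 10 CPM of Ddx3y, which were BA tumour replicate 1 and the 3 WT PC, 1 of 9 members was called, Ereg (log2 2.13 ± 0.33). The other differences there had the same direction as in all libraries and were 1.76 for Areg, 1.54 for Btc, 1.56 for Hbegf, 1.12 for Egfr and -0.87 for Egf. Within the libraries up to 10 CPM of Gm13394, which were BA tumour replicate 2 and the 3 WT PC, Areg (3.37), Ereg (1.84) and Btc (1.51) were called, and Egfr (1.12), Hbegf (1.25) and Egf (-1.71) were not. These fits hold 1 tumour, which is assumed to vary like the WT libraries. For Apcfl/+ tumours, tumour replicate 1 and the 3 WT SI were over 10 CPM of Ddx3y, and 4 of 9 members were called among them, with log2 differences of 1.23 for Tgfa, 1.88 for Ereg, 2.60 for Btc and 1.24 for Egfr, while Areg (0.27), Hbegf (0.60) and Erbb3 (-0.29) were not. Gm13394 reads and group could not be told apart in Apcfl/+ tumours or in any comparison with d30 WT. In BA against A colon all 9 libraries were over 10 CPM of both.

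In colon with Alk5 loss alone no member passed. In A against WT colon 0 of 9 members were called by edgeR, where 0.141% of all genes were, and 2 had an unadjusted p under 0.05, Erbb2 (log2 -0.34 ± 0.15, p = 0.0468) and Erbb3 (log2 -0.43 ± 0.19, p = 0.0460). DESeq2 also called 0. In sulindac-treated A against WT colon 0 of 9 were called by edgeR, against 0.0507% of all genes, and 1 by DESeq2, Btc. Btc held 7.82, 7.07, 7.80 and 6.67 CPM in these mice, all above the 4 WT libraries (log2 0.76 ± 0.19, unadjusted p = 0.00263, adjusted p = 0.361 in edgeR and 0.0467 in DESeq2). Between sulindac-treated and untreated A colon 0 of 9 members were called by edgeR or DESeq2, where 0% of all genes were called by edgeR, and the 1 member with an unadjusted p under 0.05 was again Btc (log2 0.41 ± 0.18, p = 0.0482). The sulindac-treated libraries were spread, with Tgfa at 97.8, 42.1, 51.2 and 86.5 CPM, Hbegf at 46.2, 16.2, 28.3 and 60.2 CPM and Erbb2 at 359, 143, 128 and 281 CPM. Replicates 1 and 4 were the 2 highest of the group for each of these genes, so these data set only wide limits on a difference.

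Ereg was lower in antibiotic-treated than in untreated BA colon, and no other member passed that test. Against untreated BA colon 1 of 9 members was called, where 13.0% of all genes were. Ereg held 15.2, 14.2, 7.00, 14.0 and 9.58 CPM with antibiotics and 26.3, 19.2, 26.3, 18.8 and 25.1 CPM without. The groups did not overlap, as was so for 10.7% of all genes tested (log2 -0.95 ± 0.19, adjusted p = 0.00963). Areg stood at 20.4 to 35.8 CPM with antibiotics (median 30.28, n = 5), below 4 of the 5 untreated libraries, and narrowly missed the threshold (log2 -0.64 ± 0.19, adjusted p = 0.0509). It was called under RLE scaling (0.0498), under DESeq2 (0.0104) and without BA replicate 4. Of the others, Egf had the largest log2 difference with antibiotics, 0.58 ± 0.25, which did not pass (unadjusted p = 0.0409, adjusted p = 0.146). The log2 differences were 0.13 ± 0.07 for Tgfa, 0.36 ± 0.25 for Hbegf, -0.07 ± 0.16 for Btc, 0.07 ± 0.14 for Egfr, -0.22 ± 0.08 for Erbb2 and -0.02 ± 0.11 for Erbb3. Against the same WT libraries, which this comparison shares with that of untreated BA mice, antibiotic-treated BA colon was called for Btc (3.49-fold), Hbegf (3.80-fold), Egfr (2.86-fold), Erbb3 (1.67-fold), Erbb2 (1.30-fold) and, 3.12-fold lower, Egf. The Erbb2 call was lost without antibiotic-treated replicate 5 (adjusted p = 0.0527) and with all 5 d30 groups in 1 fit (adjusted p = 0.212). Areg (log2 0.57 ± 0.31) and Ereg (log2 -0.14 ± 0.22) did not pass against WT, and Areg was called without WT replicate 2 (log2 1.02, adjusted p = 0.00509). Antibiotic-treated replicate 3 stood apart with a summed level of 10 fibroblast markers of 8772 CPM and held the lowest Ereg, Areg, Btc, Hbegf and Tgfa of its group, and without it Ereg was still called against untreated BA colon.

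Tests of the difference between effects separated few members. Between the effects in BA and Apcfl/+ tumours, each against its own WT, 2 of 9 members differed, where 39.7% of all genes did. The Areg effect was larger in BA tumours (log2 difference 1.90 ± 0.54, adjusted p = 0.0131) and the Tgfa effect was larger in Apcfl/+ tumours (log2 difference -0.84 ± 0.24, adjusted p = 0.0146). Both tests held in all 15 fits that left out 1 library. For Ereg (-0.40 ± 0.50), Btc (-0.31 ± 0.47) and Egfr (0.28 ± 0.26) the difference did not pass, and its error allows sizeable differences. Tissue, genotype and labelled background differ together between these tumours. Between BA tumours and d30 BA colon 1 of 9 differed, against 16.3% of all genes, and the Ereg effect was larger in tumours (log2 difference 1.29 ± 0.27, adjusted p = 0.00448). Between Apcfl/+ tumours and acute Apc loss 1 of 9 differed, against 24.7% of all genes, and the Egfr effect was larger in tumours (log2 difference 0.89 ± 0.32, adjusted p = 0.0421). The Egfr test held in 10 of 24 fits that left out 1 library, with adjusted p up to 0.0992, and it was lost under RLE scaling.

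Other genes of the pathway, 24 in all, were counted as a set. In BA tumours 22 were tested, 4 were higher and 0 lower, with 13.2% of all genes called, and the median log2 difference was 0.40 against 0.03 for all genes. In Apcfl/+ tumours 11 of 22 were higher and 6 lower, with 61.5% of all genes called, and the median was 0.23 against 0.03. At day 4, 4 of 22 were higher and 6 lower, with 54.2% called, and the median was -0.15, where that of all genes was -0.00036. In d30 BA against WT colon 9 of 21 were higher and 5 lower, with 55.1% called, and the median was 0.07 against -0.03. In BA against A colon 10 of 22 were higher and 3 lower, with 45.3% called, and the median was 0.29 against -0.06. In antibiotic-treated BA against WT colon 7 of 22 were higher and 7 lower, with 39.6% called, and the median was -0.08 against 0.01. In antibiotic-treated against untreated BA colon 0 of 21 were higher and 6 lower, with 13.0% called, and the median was -0.18 against 0.03. Errfi1, a feedback inhibitor of EGFR, was higher in BA tumours (log2 1.06 ± 0.21), in d30 BA colon against WT (1.61 ± 0.12) and A (1.93 ± 0.14), and in Apcfl/+ tumours (0.70 ± 0.20), and lower at day 4 (-0.71 ± 0.18). Lrig1, another inhibitor and a marker of crypt stem cells, was higher in Apcfl/+ tumours (0.61 ± 0.21) and at day 4 (1.26 ± 0.16). Of 4 genes of ligand shedding, 2 were higher in BA tumours, Rhbdf2 (1.23 ± 0.23) and Adam10 (0.91 ± 0.21), as was the adaptor Gab2 (1.01 ± 0.25). Of the same 4 genes, 4 were higher in Apcfl/+ tumours and 1 at day 4. In d30 BA colon 3 were higher and 1 lower than in WT, and 3 were higher than in A. With antibiotics 3 were lower than in untreated BA colon.

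Neuregulins are the ligands of ERBB3 and ERBB4. Nrg1 was lower in d30 BA colon than in WT (log2 -2.64 ± 0.31) or A (-3.16 ± 0.43). Nrg4 was also lower than in WT (-0.93 ± 0.20) and in A. Nrg2 was lower than in A (-1.61 ± 0.29) and was left out by the filter against WT. In BA tumours Nrg1 did not pass (0.45 ± 0.85). Nrg1 was higher and Nrg2 lower in Apcfl/+ tumours (1.23 ± 0.24 and -1.29 ± 0.25) and at day 4 (0.95 ± 0.28 and -1.35 ± 0.25). Fibroblast markers moved with Nrg1 at d30, with 7 of 10 lower in BA than in WT colon and summed levels of 1300 to 1699 against 1811 to 2213 CPM. Of 8 smooth muscle markers 6 were lower there, as were all 6 neuron and glia markers, where 55.1% of all genes tested were called. The part of these cells in the Nrg1 result was not tested. Erbb4 and Nrg3 were left out by the filter in all 10 comparisons. In Apcfl/+ tumours Cbl, which tags active EGFR for degradation, was lower (-1.49 ± 0.17), as was Sos1 (-1.09 ± 0.12), a RAS activator.

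Across the 53 libraries each gene was set beside 13827 others by Pearson's r of log2 CPM, as a description over libraries that share groups and tissue. Myof was among the genes most like Egfr (r = 0.940). Erbb2 was most like Dnm2 (0.961) and Cmtm4 (0.958), and Erbb3 like Myo5b (0.920) and Myh14 (0.918). Hbegf was most like Errfi1 (0.914) and Rhpn2 (0.914). Btc came nearest to N4bp3 (0.919) and Marcksl1 (0.898), Ereg to Btc (0.847) and Knop1 (0.838), Areg to Inf2 (0.819) and Myc (0.785), Tgfa to Tns4 (0.899) and Ptpn9 (0.892), Egf to Vipr2 (0.852) and Tmem44 (0.850), and Epgn to Igfbp5 (0.559) and Znrf1 (0.545).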

How the data were processed

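RNA of 53 whole-tissue mouse libraries was sequenced with paired reads. The authors trimmed the reads with Trim Galore 0.6.4, aligned them to GRCm38 with HISAT2 2.1.0 and counted them on genes with featureCounts 1.6.4, per the labels and methods, and deposited raw counts without normalisation as 1 table. Strand setting and treatment of multi-mapping reads are not given in the sources used here. Symbols and exon lengths came from GENCODE M21, and 55154 of 55421 identifiers had a symbol.

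Libraries were grouped by their labels. For each of 10 comparisons only its own libraries were filtered by filterByExpr (minimum count 10), scaled by TMM and tested with edgeR 4.0.16 (glmQLFit and glmQLFTest). Tests are two-sided, and p-values were adjusted over all genes tested by the Benjamini-Hochberg method. For 3 pairs of comparisons the difference of effects was tested with an interaction term. Errors of log2 fold changes are those of the fit. Where separate mice are not named in the labels, p-values measure the spread between libraries. Normalised CPM use TMM factors over all 53 libraries, and FPKM are these CPM per kilobase of exon. Pairs of libraries within a group differed by more than counting noise (chi-square per degree of freedom at least 4.18).

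The members, lists and tests were chosen with earlier results of these data known. All members are named, and of the pathway list up to 4 called genes with the largest difference per comparison and Erbb4, Nrg1, Lrig1 and Errfi1. The marker lists were epithelium, fibroblast, smooth muscle, immune, neutrophil, mast cell, endothelium, enteric neuron and glia, Brunner's gland, exocrine pancreas, colon and small intestine. Alternatives were RLE scaling, DESeq2 1.42.0, no filter on low counts, a block for the replicate number, all d30 groups in 1 fit, each library left out, a term for Gm13394 reads at day 4 and, after the data were seen, a term for Ddx3y reads, fits within the libraries over or up to 10 CPM of Gm13394 or Ddx3y, and day 4 without Apcfl/fl replicates 1 and 8. The calling was tested on simulated data. R 4.3.3 was used.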

Additional observations from a re-analysis of the deposited data

Results flagged for a closer look

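Within groups of 4 to 10 libraries, 81 sets of values were searched for a highest or lowest library far from the others by Dixon's 95% critical value, which chance passes in about 1 set of 20, and 4 were found. Egf was highest in Apcfl/+ tumour replicate 2, at 4.78 CPM, with the other 4 tumours at 0.885 to 1.54 CPM. Erbb3 was lowest in the same library, at 222.6 CPM, with the others at 355 to 390 CPM. Tgfa was lowest in Apcfl/fl replicate 8, at 15.2 CPM, with the other 9 libraries at 35.3 to 55.7 CPM, and highest in A replicate 3, at 86.1 CPM, with the others at 49.7 to 53.4 CPM.

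The effects of 4 genes differed between 2 comparisons in a test of the difference itself. The Areg effect was larger in BA than in Apcfl/+ tumours by a log2 of 1.90 and the Tgfa effect differed by -0.84. The Ereg effect was larger in BA tumours than in d30 BA colon by 1.29, and the Egfr effect was larger in Apcfl/+ tumours than after acute Apc loss by 0.89.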

How the results depend on the processing

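Of the values called for single genes, none turned in direction under any alternative run. In BA tumours the 6 calls among 9 members became 3 with the replicate number as a block, 1 within the libraries up to 10 CPM of Ddx3y, 3 within those up to 10 CPM of Gm13394 and 1 with a term for Ddx3y, and calls over all genes went from 2527 to 931, 411, 2479 and 168. The Apcfl/+ tumour calls went from 7 to 4 members within the libraries over 10 CPM of Ddx3y and 4 with a Ddx3y term, and from 12650 genes to 8333 with the block and 7030 with the Ddx3y term. At day 4, calls over all genes went from 9504 to 5490 within the libraries over 10 CPM of Gm13394. Calls in A against WT colon went from 25 genes to 132 under DESeq2 and 72 with no filter. For sulindac-treated A against WT they went from 9 to 109 (DESeq2), 24 (no filter), 2 (block) and 29 (all d30 groups in 1 fit), with 1 member under DESeq2. For sulindac-treated against untreated A they went from 0, with 460 at an unadjusted p under 0.05, to 7 (DESeq2), 1 (no filter) and 1 (block). With antibiotics against BA they went from 2172 to 1284 (block) and 1074 (all d30 groups), and members from 1 to 2 under RLE scaling and DESeq2. Members that differed in effect went from 2 to 4 between the tumour types under DESeq2, from 1 to 2 between BA tumours and d30 with no filter, and from 1 to 0 (RLE scaling), 2 (DESeq2) and 0 (no filter) between Apcfl/+ tumours and day 4. In that last test RLE scaling moved the median of all genes by a log2 from -0.02 to -0.16 and the 2759 higher and 2727 lower calls to 2100 and 3458. The causes of these changes were not tested.

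Leaving out 1 library at a time gave 696 to 3641 genes and 3 to 6 members for BA tumours (fewest without WT PC replicate 1), 4 to 7 members for Apcfl/+ tumours, 15 to 28 genes for A against WT, 4 to 18 for sulindac-treated A against WT, 1300 to 2683 genes and 1 to 2 members for antibiotics, 2 to 4 members between tumour types, 1 to 3 between BA tumours and d30, and 0 to 3 between Apcfl/+ tumours and day 4. At day 4, 6 members were called in each of 16 such fits and without Apcfl/fl replicates 1 and 8 together. Equal replicate numbers did not pair libraries, since the correlations of their deviations ran from -0.35 to 0.16. The block gave 5 members in antibiotic-treated BA against WT, where Erbb2 was lost, and 5 in Apcfl/+ tumours, and with 9 in BA against A, 8 in BA against WT and 6 at day 4 it left those counts as they were.

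Signs turned for values that had not been called. Erbb2 in BA tumours was -0.21 with the block, -1.13 within the libraries up to 10 CPM of Gm13394 and -0.11 to 0.25 with 1 library left out, and Erbb3 there was -0.51. Egf in Apcfl/+ tumours was -0.21 and -0.25 with the Ddx3y split and term and -0.33 to 0.45 with 1 library left out. At day 4 Egf was 0.37 and Egfr -0.24 within the libraries up to 10 CPM of Gm13394 (-0.76, which was called, and 0.37 within those over it), Hbegf 0.15 within those over it, and Egfr -0.011 to 0.18 with 1 left out. With 1 left out, A against WT gave Egf -0.60 to 0.0023, sulindac-treated A against WT gave Egf -0.31 to 0.34, Tgfa -0.38 to 0.013 and Hbegf -0.30 to 0.27 (-0.12 with the block), antibiotics against BA gave Btc -0.14 to 0.025, Egfr -0.034 to 0.16 and Erbb3 -0.092 to 0.058, and sulindac against A gave Egf -0.077 to 0.70, Hbegf -0.045 to 0.52, Erbb2 -0.28 to 0.25 (-0.078 with the block) and Erbb3 -0.032 to 0.44. Differences of effects gave Erbb2 -0.10 to 0.30 (-0.026 with no filter) between tumour types, Hbegf -0.16 to 0.80, Egfr -0.39 to 0.085 and Erbb3 -0.43 to 0.019 between BA tumours and d30, and Egf -0.083 to 0.70 and Btc -0.071 to 0.33 (-0.029 under RLE scaling and -0.031 under DESeq2) between Apcfl/+ tumours and day 4. Depth limits Epgn, with at most 13 reads, and Egf in Apcfl/fl replicate 1, with 0 of 516985 reads. Egf in d30 BA colon rests on 9 to 14 reads per library.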

Other observations

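Immune, endothelial, mast cell and gland markers were measured beside the members. Of all genes tested, 13.2% were called in BA tumours, 61.5% in Apcfl/+ tumours and 54.2% at day 4. Of 10 immune markers 6 were higher in BA tumours, 0 were higher and 5 lower in Apcfl/+ tumours, and 6 were lower at day 4. Of 5 endothelial markers 3 were higher in each tumour type and 5 lower at day 4. Of 7 mast cell markers 6 were higher in Apcfl/+ tumours, and 0 of the 5 tested were higher in BA tumours. All 3 Brunner's gland markers were higher in Apcfl/+ tumours, with sums of 12.3 to 968 CPM against 5.68 to 7.16 CPM in WT SI. Exocrine pancreas markers summed to 97.6 to 651 CPM in Apcfl/+ tumours and reached 882 CPM in 1 WT SI library and 1161 CPM in 1 WT library at day 4.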
